A study of Mus musculus with 11 samples.

Results

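The genes of MHC class I antigen presentation and peptide loading were followed through 11 single-cell RNA libraries of mouse lung. Of 31053 genes in the deposited matrices, 10 were taken by symbol. They were the heavy chains H2-K1, H2-D1 and H2-T23, the light chain B2m, the peptide transporter subunits Tap1 and Tap2, the loading chaperone Tapbp, the immunoproteasome subunits Psmb8 and Psmb9, and the transcriptional regulator Nlrc5. All 10 were found in every library.

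MHC class I molecules carry peptides cut from proteins made inside a cell to its surface, where CD8 T cells and NK cells read them. The proteasome makes the peptides, the transporter TAP moves them into the endoplasmic reticulum, and tapasin holds empty class I molecules beside the transporter until a peptide is bound. Nearly all nucleated cells express class I, and interferon gamma raises the set of genes through regulators that include IRF1 and NLRC5.

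The lungs came from mice of 4 genotypes, given here as the labels spell them. WT was wild type (+/+, 1 library, 18 months). The p21Het group was p21 heterozygotes (+/-, 3 libraries, 19 months for p21Het_1 and 18 months for the others), with p21 encoded by Cdkn1a. The p21mTert group (+/mTert, 5 libraries) was 20 months old for p21mTert_1 and 18 months for the rest, and mTert is telomerase reverse transcriptase. The p21mTertCD group (+/mTertCD, 2 libraries) was 18 months old, and the labels do not spell out CD. Every group but WT thus kept a single + allele of p21. WT, p21Het_1 and p21mTert_1 came from an earlier deposit than the other 8 libraries. The labels do not say whether libraries of a group came from separate animals, so p-values measure only the spread between these libraries.

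Barcodes with 1000 to 30000 UMIs (unique molecular identifiers, 1 per captured RNA) and at most 14% mitochondrial UMIs were kept, which left 69266 of 81983. Libraries kept 4721 to 8525 cells and 36248337 to 67722156 UMIs. Cells were assigned to lineages by marker genes and are called "-like" for that reason, and at most 20.6% of a library's cells stayed unassigned. Of 51 check genes not used in the gates, 41 were highest in their own lineage among 26 lineages, and 50 were in its highest 3. No pair of libraries shared more than 20 barcodes. Cdkn1a, the p21 gene, overlapped between groups, at 136 to 187 CPM in p21Het, 124 to 160 CPM in p21mTert, 118 and 174 CPM in p21mTertCD and 155 CPM in WT (CPM is a gene's UMIs scaled to a common total of UMIs). Tert, the gene the mTert alleles are named for, read 0.544 to 0.842 CPM in p21Het, 1.13 CPM in WT, 2.00 to 3.28 CPM in p21mTert and 1.90 to 2.59 CPM in p21mTertCD, on 27 to 188 UMIs. The library p21mTertCD_1 stood apart in makeup. Its B-like cells were 1.63% of cells against 12.2% to 38.7% in the other 10 libraries, and its T-like cells were 35.3% against 12.5% to 26.0%. In p21Het_3, neutrophil-like cells were 25.0% of cells, against 2.74% to 13.2% elsewhere.

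Of the 10 genes, 8 lie on chromosome 17 of mm10 (GENCODE M21 gene models), and their distance from Cdkn1a, the altered locus, ranges from 4.82 Mb for Tapbp to 6.93 Mb for H2-T23 (chr17:36029773-36032855). B2m is on chromosome 2 (chr2:122147686-122153083) and Nlrc5 on chromosome 8. RefSeq promoters (build GRCm38.p6, 250 bases before to 50 after the start) were at hand for 8 of the 10 genes. Those of H2-K1 (chr17:34000298-34000597, minus strand), H2-D1 (chr17:35262844-35263143, plus strand), B2m (chr2:122147437-122147736, plus strand) and H2-T23 (chr17:36032652-36032951, minus strand) are shown because class I promoters are known for shared control elements and because H2-T23 and B2m changed in the genotype comparisons. Capitals mark 3 motifs searched on both strands: TGACG followed after 20 bases by ATTGG (letters as in the X2 and Y elements that an NLRC5-bound complex reads), GGGATTCCC (as in NF-kB sites), and GAAA, any 2 bases, then GAAA (as in interferon response elements).
H2-K1: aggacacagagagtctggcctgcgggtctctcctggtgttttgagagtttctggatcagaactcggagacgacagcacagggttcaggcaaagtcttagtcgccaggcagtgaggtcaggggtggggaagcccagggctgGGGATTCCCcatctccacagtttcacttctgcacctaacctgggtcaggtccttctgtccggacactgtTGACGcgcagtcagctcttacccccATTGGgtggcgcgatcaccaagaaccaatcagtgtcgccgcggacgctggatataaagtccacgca
H2-D1: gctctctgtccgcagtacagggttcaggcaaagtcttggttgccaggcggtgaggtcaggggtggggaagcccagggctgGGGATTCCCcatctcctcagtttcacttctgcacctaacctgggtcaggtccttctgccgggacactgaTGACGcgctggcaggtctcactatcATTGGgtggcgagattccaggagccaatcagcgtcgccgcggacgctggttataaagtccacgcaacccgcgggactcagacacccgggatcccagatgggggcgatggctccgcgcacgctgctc
B2m: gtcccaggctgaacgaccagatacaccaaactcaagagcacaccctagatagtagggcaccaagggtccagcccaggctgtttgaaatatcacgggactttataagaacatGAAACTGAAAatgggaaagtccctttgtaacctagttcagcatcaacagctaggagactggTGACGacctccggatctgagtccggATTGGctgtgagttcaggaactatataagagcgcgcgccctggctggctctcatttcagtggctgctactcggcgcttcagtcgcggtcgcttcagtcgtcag
H2-T23: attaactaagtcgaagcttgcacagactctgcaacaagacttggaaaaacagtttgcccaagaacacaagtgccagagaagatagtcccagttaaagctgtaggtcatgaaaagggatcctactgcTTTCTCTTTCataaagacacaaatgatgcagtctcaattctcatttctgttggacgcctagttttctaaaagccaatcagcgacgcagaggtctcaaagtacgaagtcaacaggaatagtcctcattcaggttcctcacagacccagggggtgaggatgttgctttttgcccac

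The spaced TGACG and ATTGG pair was in the H2-K1, H2-D1 and B2m promoters, from bases -41, -101 and -78 relative to the start, and in 26 of all 27025 promoters of the table (0.0962%). Its spacing was chosen after these sequences were seen. GGGATTCCC was in H2-K1 and H2-D1 and in 0.370% of all promoters. The interferon-type motif was in B2m and, on the minus strand, in H2-T23, and in 3.49% of all promoters. Only these exact strings were searched, so an element spelled otherwise stays in lower case. A promoter without a marked motif is therefore not shown to lack that kind of element. The windows of Tap1 and Psmb9 held none of these 3 motifs. They lay on opposite strands over largely the same bases, chr17:34187306-34187580, and the gene models overlap by 212 bases.

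Reads of related heavy chains can be split or dropped when they are counted. The 50-base windows in the last 500 bases of each gene's coding transcripts were searched in transcripts of all other genes. The share found there was 9.60% in H2-K1, 8.92% in H2-D1 and 38.1% in H2-T23. The gene sharing most was H2-D1 for H2-K1 and H2-K1 for H2-D1. For H2-T23 it was Rab33b, ahead of H2-T-ps and Hook2, so that share is not with related heavy chains alone. The share was 0 in B2m, Tap2, Psmb8, Psmb9 and Nlrc5, 2.75% in Tap1 and 4.83% in Tapbp. Levels of the 3 heavy chains are uncertain for that reason, and how many of their reads were split or dropped was not measured.

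Apart from erythroid-like cells, each of the 10 genes had its lowest CPM in club-like or ciliated-like cells of the airway. The highest lineage differed by gene (levels are means of CPM ± SD over libraries with at least 20 cells of a lineage). An abundant RNA lowers the CPM of all other genes in a lineage. Scgb1a1 alone stood at 444555 CPM in club-like cells, and the order of lineages with it left out was not tested. Among the heavy chains, H2-K1, a classical class I molecule that presents peptides to CD8 T cells, was highest in NK-like (3003 ± 280 CPM, n = 11), gCap-like (general capillary, 2606 ± 492 CPM, n = 11) and CD4 T-like cells (2600 ± 296 CPM, n = 11). Its lowest levels were in club-like (265 ± 98.4 CPM, n = 6) and ciliated-like cells (387 ± 126 CPM, n = 11). H2-D1, the other classical heavy chain, had a different order. It was highest in non-classical monocyte-like (3198 ± 359 CPM, n = 11), aCap-like (aerocyte, 3185 ± 508 CPM, n = 10) and neutrophil-like cells (3129 ± 467 CPM, n = 11), which had low H2-K1 (669 ± 165 CPM). These leading lineages of H2-D1 did not differ beyond their spread.

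H2-T23 encodes Qa-1, a class I-like molecule that presents few peptides and is read by the NKG2A receptor of NK cells. It was highest in plasmacytoid dendritic cell-like cells (638 ± 83.4 CPM, n = 4), aCap-like cells (569 ± 129 CPM, n = 10) and gCap-like cells (569 ± 179 CPM, n = 11), with venous-like cells next (520 ± 84.1 CPM, n = 10). Endothelium thus held 3 of the 4 highest places, but lymphatic-like (276 ± 97.8 CPM) and arterial-like cells (271 ± 115 CPM) were 9th and 10th. The lowest H2-T23 levels were 76.8 ± 15.2 CPM in AT2-like (alveolar type 2), 46.7 ± 6.34 CPM in AT1-like, 33.2 ± 12.3 CPM in ciliated-like and 13.1 ± 3.97 CPM in club-like cells. B2m, the light chain that every class I molecule needs, was highest in non-classical monocyte-like cells (4256 ± 815 CPM, n = 11), beyond the spread above the next lineage, aCap-like (2667 ± 812 CPM). Alveolar macrophage-like cells came directly after (2612 ± 792 CPM), and ciliated-like (163 ± 77.3 CPM) and club-like cells (161 ± 51.8 CPM) were lowest.

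The peptide supply genes were led by type 1 dendritic cell-like cells, the dendritic cells best known for presenting captured antigen on class I. Tap1 stood at 166 ± 28.9 CPM there (n = 11), beyond the spread above gCap-like cells (122 ± 53.3 CPM). Psmb8 and Psmb9, which replace standard catalytic subunits in the immunoproteasome, were at 811 ± 65.6 and 462 ± 47.8 CPM in these cells. For both, the step down to plasmacytoid dendritic cell-like cells (624 ± 61.4 and 222 ± 59.3 CPM, n = 4) was larger than the spread. Tap2 was instead highest in the endothelium, with gCap-like (155 ± 39.9 CPM), aCap-like (151 ± 50.1 CPM) and arterial-like cells (137 ± 51.7 CPM, n = 9) not separated by their spread. Tapbp was highest in mesothelial-like cells (458 ± 120 CPM, n = 6), followed by gCap-like cells (373 ± 61.2 CPM) and, 4th, alveolar macrophage-like cells (300 ± 48.1 CPM).

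Nlrc5, the regulator of class I transcription, was highest in CD8 T-like (51.4 ± 9.63 CPM) and CD4 T-like cells (50.2 ± 9.64 CPM) , with NK-like cells next. The lineages after them, aCap-like (29.7 ± 25.4 CPM) and gCap-like (26.6 ± 17.8 CPM), had wide spreads, with p21mTertCD_1 at 96.7 and 78.7 CPM. None of its 25 neighbouring pairs of lineages differed beyond the spread of the paired difference, against 2 to 7 of 25 in the other 9 genes. Erythroid-like cells, a gauge of free RNA, held 0.523% to 5.69% of the level over all cells. Hbb-bs (378057 CPM) and Hba-a1 (202718 CPM) lower the CPM of other genes in these cells. Nlrc5 in ciliated-like (0.766 ± 1.03 CPM), club-like (1.27 ± 2.00 CPM) and AT1-like cells (1.32 ± 2.64 CPM) and H2-T23 in club-like cells were near the erythroid-like levels of 0.655 ± 1.27 and 12.6 ± 10.5 CPM and are read as background.

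**Figure D1:**
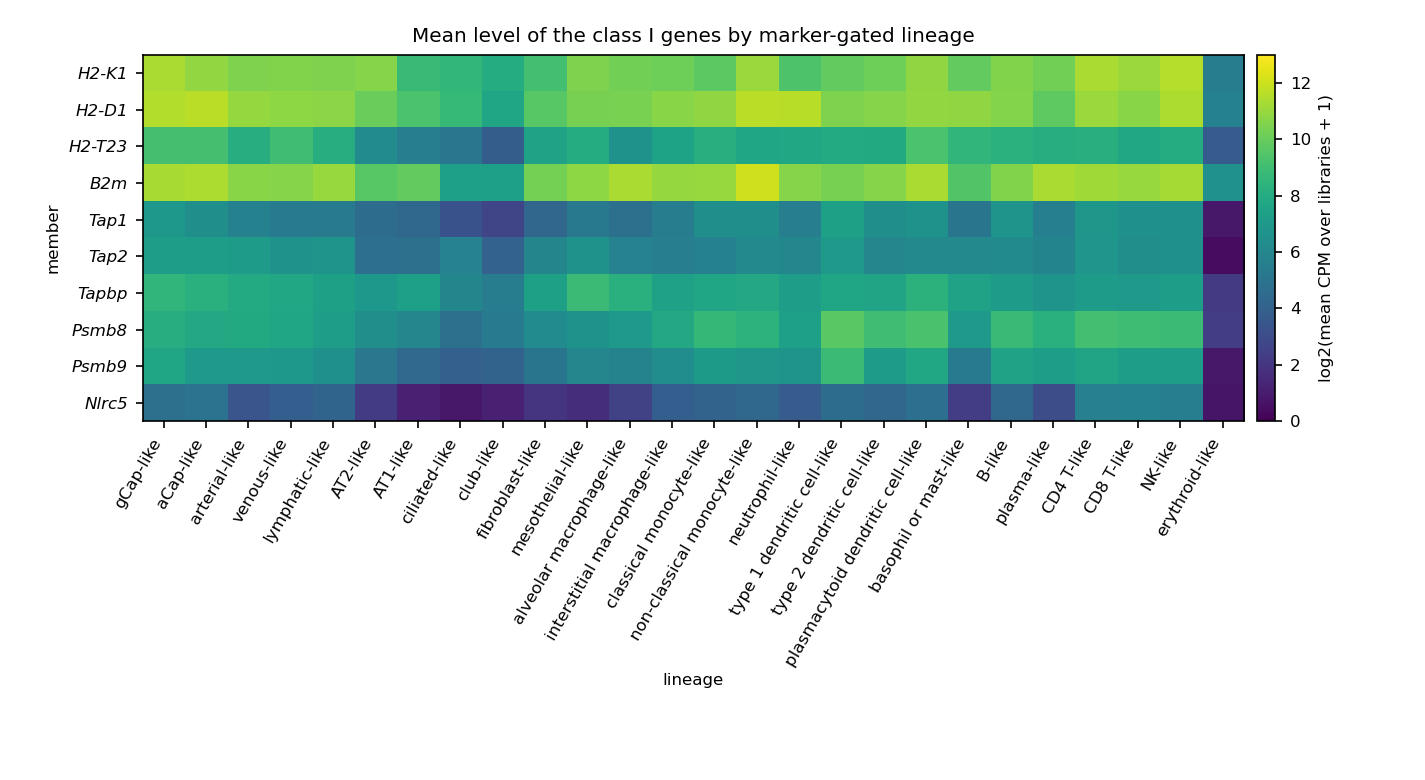
Mean level of each gene (rows) in 26 marker-gated lineages (columns), as log2 of the mean CPM over libraries plus 1. Apart from erythroid-like cells, the darkest cell of each row is the ciliated-like or the club-like one, type 1 dendritic cell-like cells are brightest for Tap1, Psmb8 and Psmb9, and Nlrc5 is brightest in T-like and NK-like cells.

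Patterns over the 26 lineages were compared by Pearson correlation of mean log2(CPM + 1) among 13701 genes with at least 10 CPM in some lineage. These are descriptions, since all points share libraries and the erythroid-like point is low in most genes. Psmb8 was most like Psmb9 (r = 0.96), Tap1 (0.96) and Rps27a (0.91). Tap1 was most like Psmb8 (0.96), Psmb9 (0.95) and Gtpbp1 (0.90). H2-K1 was most like H2-T22 (0.93), Mta2 (0.92) and Idnk (0.92), and B2m was most like H2-T22 (0.89), H2-D1 (0.89) and Crlf2 (0.88). Nlrc5 was most like Ripk3 (0.89), Gtpbp1 (0.87) and Trim14 (0.87). Without the erythroid-like point Psmb8 and Tap1 ranked first for each other (r = 0.94) and the 3 genes of B2m kept the first 3 places. The 3 genes named for H2-K1 then ranked 3rd, 5th and 6th, those for Nlrc5 4th, 5th and 8th, Rps27a 12th for Psmb8, and Gtpbp1 4th for Tap1.

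Capillary and epithelial cells of the same alveoli were compared within each library. All 10 genes were higher in gCap-like than in AT2-like cells, which make surfactant. Psmb9 had a mean of 206 CPM in gCap-like and 35.5 CPM in AT2-like cells, a log2 difference of 2.51 ± 0.45 (SD, n = 11), positive in 11 of 11 libraries. H2-T23 differed most (569 against 76.8 CPM, log2 difference 2.84 ± 0.31), followed by Tap2 (2.55 ± 0.35), Psmb9, Nlrc5 (2.39 ± 0.65) and Tap1 (2.29 ± 0.52). B2m (1.71 ± 0.42), Psmb8 (1.69 ± 0.50), Tapbp (1.61 ± 0.24) and H2-D1 (1.47 ± 0.32) differed less. Each of these 9 was positive in every library, with an exact sign-flip permutation p of 0.000977, 2-sided and the smallest that 11 libraries can give (0.00115 after Benjamini-Hochberg adjustment over 20 tests). H2-K1 had the smallest difference, 0.72 ± 0.37 (2606 against 1587 CPM), and was positive in 10 of 11 libraries (exact permutation p = 0.00195, adjusted 0.00206). Scaling by TMM over the summed lineages lowered the gCap-like minus AT2-like differences by 0.66 in the median. H2-K1 then differed by 0.054 (adjusted exact permutation p = 0.612), while the other 9 kept their direction and stayed under 0.05.

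The comparison of T-like with alveolar macrophage-like cells, which engulf inhaled particles, split the set. Nlrc5 was higher in T-like cells by 3.14 ± 0.44 (49.0 against 4.92 CPM), Psmb8 by 1.98 ± 0.34 (523 against 130 CPM), and Tap1 by 1.78 ± 0.29. Psmb9 was at 157 CPM in T-like and 54.5 CPM in alveolar macrophage-like cells. H2-T23 (1.28 ± 0.52), H2-K1 (0.99 ± 0.37) and Tap2 (0.81 ± 0.25) followed, and these 7 were positive in 11 of 11 libraries (exact permutation p = 0.000977, adjusted 0.00115). H2-D1 was higher by 0.49 ± 0.25 in 10 of 11 libraries (exact permutation p = 0.00195, adjusted 0.00206). Tapbp went the other way, at 137 CPM in T-like and 300 CPM in alveolar macrophage-like cells (log2 difference -1.11 ± 0.27, positive in 0 of 11 libraries, exact permutation p = 0.000977, adjusted 0.00115). B2m did not pass, with a difference of -0.26 ± 0.41 that was positive in 5 of 11 libraries (exact permutation p = 0.083, adjusted 0.083).

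**Figure D2:**
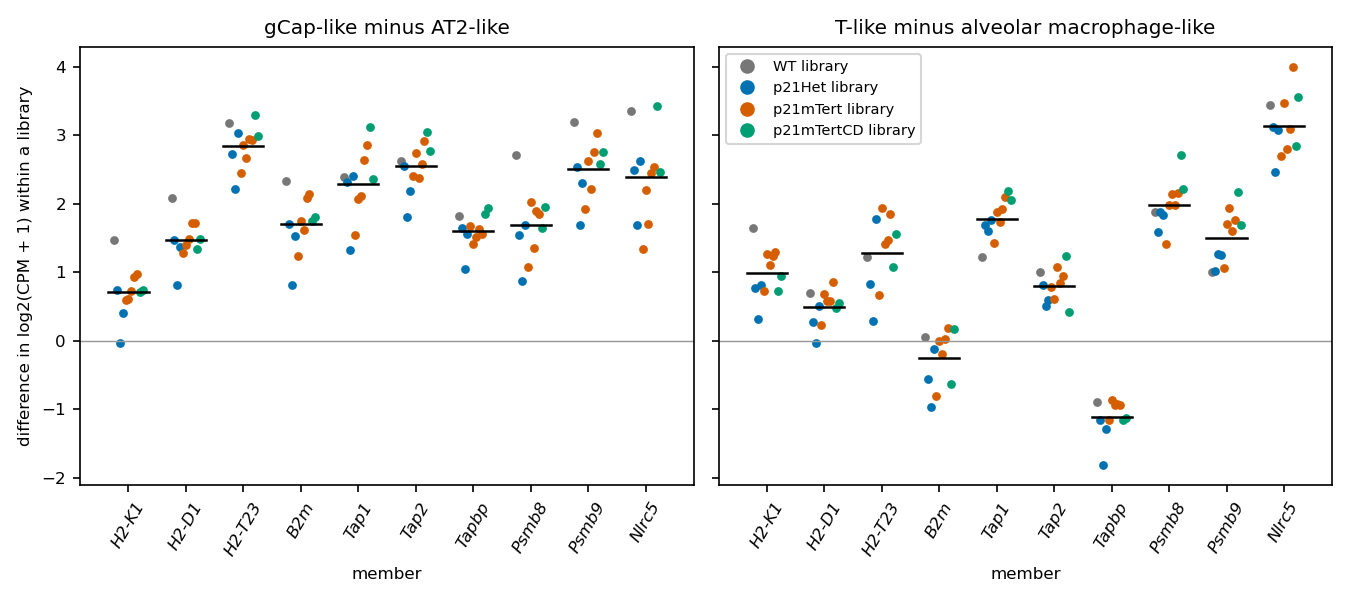
Within-library difference in log2(CPM + 1) for each gene, gCap-like minus AT2-like cells (left) and T-like minus alveolar macrophage-like cells (right). Points are the 11 libraries coloured by genotype and the line is their mean. All genes lie above 0 on the left except for 1 library of H2-K1, and Tapbp lies below 0 on the right in all libraries.

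Genotypes were compared in 10 lineages with edgeR's quasi-likelihood test on UMIs summed per library, with p-values adjusted by Benjamini-Hochberg over all genes tested in a lineage and called under 0.05. Nlrc5 was too low to be tested in fibroblast-like cells, which left 99 pairs of a gene and a lineage. Between p21mTert and p21Het, 1 of the 99 pairs was called, H2-T23 in classical monocyte-like cells, where 0.0942% of genes were called (0.0476% over the 10 lineages). At an unadjusted p under 0.05, 7 pairs were higher and 1 was lower in p21mTert, against 2.58% and 2.87% of all tests. The 7 became 4 without p21Het_3 and 11 without p21Het_2, and without p21Het_1 there were 8 higher and 4 lower. Shares over all genes are not given for these fits, so the counts show only how far the 7 moved. Summed over all cells, 0 of the 10 genes were called by edgeR (0.0114% of genes) or by DESeq2 (31 genes called in all), and 1 had an unadjusted p under 0.05 and was higher (3.95% of genes).

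H2-T23 in classical monocyte-like cells, the blood-derived precursors of tissue macrophages, read 209, 159 and 188 CPM in p21Het_1 to p21Het_3. In p21mTert_1 to p21mTert_5 it read 323, 309, 342, 314 and 306 CPM. The groups did not overlap, and the WT library (294 CPM) lay between them. The log2 fold change was 0.82 ± 0.12 (SE worked back from edgeR's F value, edgeR adjusted p = 0.012), higher in 5 of 5 p21mTert libraries. It was lost without p21Het_2 (adjusted p = 0.0582), p21Het_3 (0.0966) or p21mTert_2 (0.0561), with adjusted p-values from 1.09e-06 to 0.0966 over 20 alternatives in edgeR or DESeq2. Among libraries of the later deposit the log2 fold change was 0.93 (edgeR adjusted p = 0.00724). The pairs next in unadjusted p were not called. They were H2-T23 in B-like cells (log2 fold change 0.39 ± 0.10, edgeR adjusted p = 0.765) and in T-like cells (0.44 ± 0.12, 0.881), B2m in classical monocyte-like cells (0.30 ± 0.11, 0.539) and Psmb9 in neutrophil-like cells (0.38 ± 0.15, 0.604). In T-like cells H2-T23 read 179, 189 and 209 CPM in p21Het and 226 to 287 CPM in p21mTert, and H2-T23 and H2-D1 were the 2 of 10 genes whose groups did not overlap upward there (1.81% of all genes tested). H2-T23 did not overlap upward in classical monocyte-like (1.33% of genes) and B-like cells (1.43%) either, and the other 7 lineages had 0 of the 10 genes apart in that direction (at most 4.57% of genes in each).

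**Figure D3:**
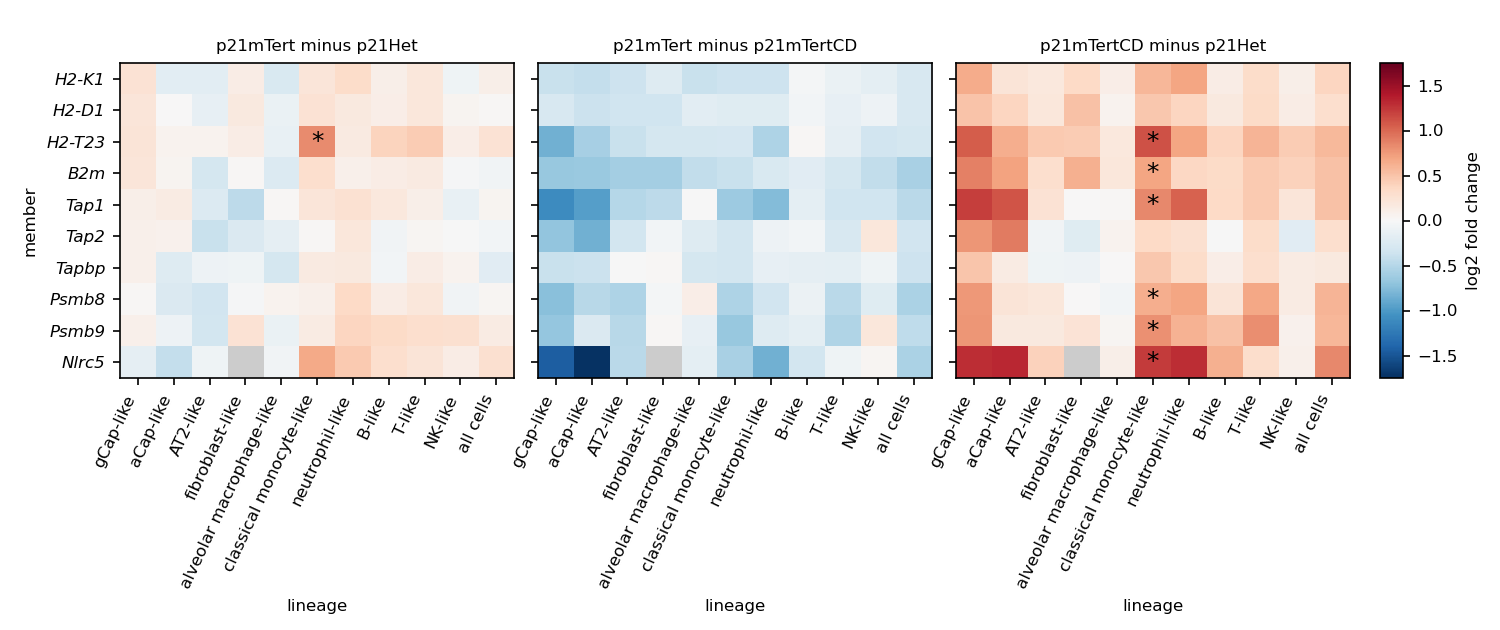
Log2 fold change of each gene (rows) in 10 lineages and all cells (columns) for the 3 genotype comparisons, with an asterisk where edgeR's adjusted p is under 0.05 and grey where the gene was not tested. Asterisks are at H2-T23 in classical monocyte-like cells on the left and at 6 genes in the same lineage on the right.

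In p21mTertCD, 6 of the 10 genes were higher than in p21Het in classical monocyte-like cells by edgeR, the only one of the 10 lineages in which edgeR called any of the 10. Of 99 pairs, 6 were called higher and 0 lower in p21mTertCD (0.111% of all tests over the 10 lineages, and 0.919% of the 8491 genes in classical monocyte-like cells). At an unadjusted p under 0.05, 46 pairs were higher and 0 lower (3.01% of all tests were higher). Of the 99 log2 fold changes, 92 were positive. The median log2 fold change of a lineage ran from 0.066 (alveolar macrophage-like) to 0.77 (gCap-like). Without p21mTertCD_1 it ran from -0.25 (alveolar macrophage-like) to 0.58 (classical monocyte-like). The 2 p21mTertCD libraries lay above all 3 p21Het libraries in all 10 genes in classical monocyte-like cells (5.98% of genes), 9 of 10 in gCap-like (5.43%), 8 of 10 in neutrophil-like (8.17%) and 7 of 10 in T-like cells (7.75%). In the other 6 lineages 0 to 3 genes lay above (3.36% to 13.7% of genes), with 3 in aCap-like and B-like and 0 in alveolar macrophage-like cells. Psmb8 in alveolar macrophage-like (8.66% of genes) and Tap2 in fibroblast-like cells (8.21%) lay below all p21Het libraries.

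In classical monocyte-like cells H2-T23 read 411 CPM in p21mTertCD_1 and 357 CPM in p21mTertCD_2, above every p21Het (159 to 209 CPM) and p21mTert library. Its log2 fold change against p21Het was 1.11 ± 0.14 (edgeR, adjusted p = 0.000498). Tap1 read 126 and 124 CPM in p21mTertCD against 77.8, 72.5 and 70.3 CPM in p21Het (log2 fold change 0.84 ± 0.15, edgeR adjusted p = 0.00716), with WT at 90.6 CPM. B2m read 2576 and 2686 CPM against 1619, 1719 and 1757 CPM (0.69 ± 0.14, edgeR adjusted p = 0.0216). Neither gene overlapped between these groups.

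Both immunoproteasome genes rose in the same cells. Psmb8 read 569 and 513 CPM in p21mTertCD against 367, 384 and 347 CPM in p21Het (log2 fold change 0.63 ± 0.13, edgeR adjusted p = 0.0323). Psmb9 read 211 and 172 CPM against 120, 124 and 105 CPM (0.81 ± 0.18, edgeR adjusted p = 0.0429). Nlrc5 read 27.1 and 22.9 CPM against 10.6, 12.5 and 11.7 CPM (1.22 ± 0.28, edgeR adjusted p = 0.0466), on 374 UMIs over 11 libraries. The other 4 genes had log2 fold changes of 0.34 or more and were not called by edgeR, while DESeq2 called H2-K1 and H2-D1 among them, and not Nlrc5. The median log2 fold change was 0.66 over the 10 genes and -0.03 over all genes tested in this lineage.

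These calls rested on few cells and few libraries. Classical monocyte-like cells numbered 37 (p21mTert_3) to 358 (p21Het_3) per library. H2-T23 was called without each library in turn, Tap1 without each but p21mTertCD_1 (edgeR adjusted p = 0.184, with 0.000205 to 0.415 over 20 alternatives in edgeR or DESeq2). Of the 6 genes, 2 were still called without p21Het_1, 2 without p21Het_3, 5 without p21Het_2, and 4 without p21mTert_2 or p21mTert_4. Without p21Het_3, calls over all genes in the 10 lineages went from 105 to 67. Fewer of the 6 were called with either p21mTertCD library left out. The median log2 fold change of the 10 genes then was 0.58 (without p21mTertCD_1) or 0.73 (without p21mTertCD_2), against 0.66 in the full fit. The 6 calls were also lost with the labelled replicate number as a block, a fit that rests on p21mTertCD_2 for that group. A lone p21mTertCD library is assumed to vary like the other groups. In the later deposit alone, 4 of the 6 were still called, with H2-K1 and H2-D1 besides. Among the 8 T-cell markers, all with a UMI, the summed level in these cells was 14.6 to 17.2 CPM in p21mTertCD and 3.05 to 15.7 CPM in p21Het. None of the 8 marker lists of other cell types that were checked stood above p21Het in both p21mTertCD libraries in this lineage. They were T, NK, B, alveolar macrophage, interstitial macrophage, neutrophil, type 2 dendritic cell and endothelial. Lists of non-classical monocytes, type 1 dendritic cells and plasmacytoid dendritic cells, the highest lineages for some of these genes, were not among them. The part of such cells in the result was not tested.

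**Figure D4:**
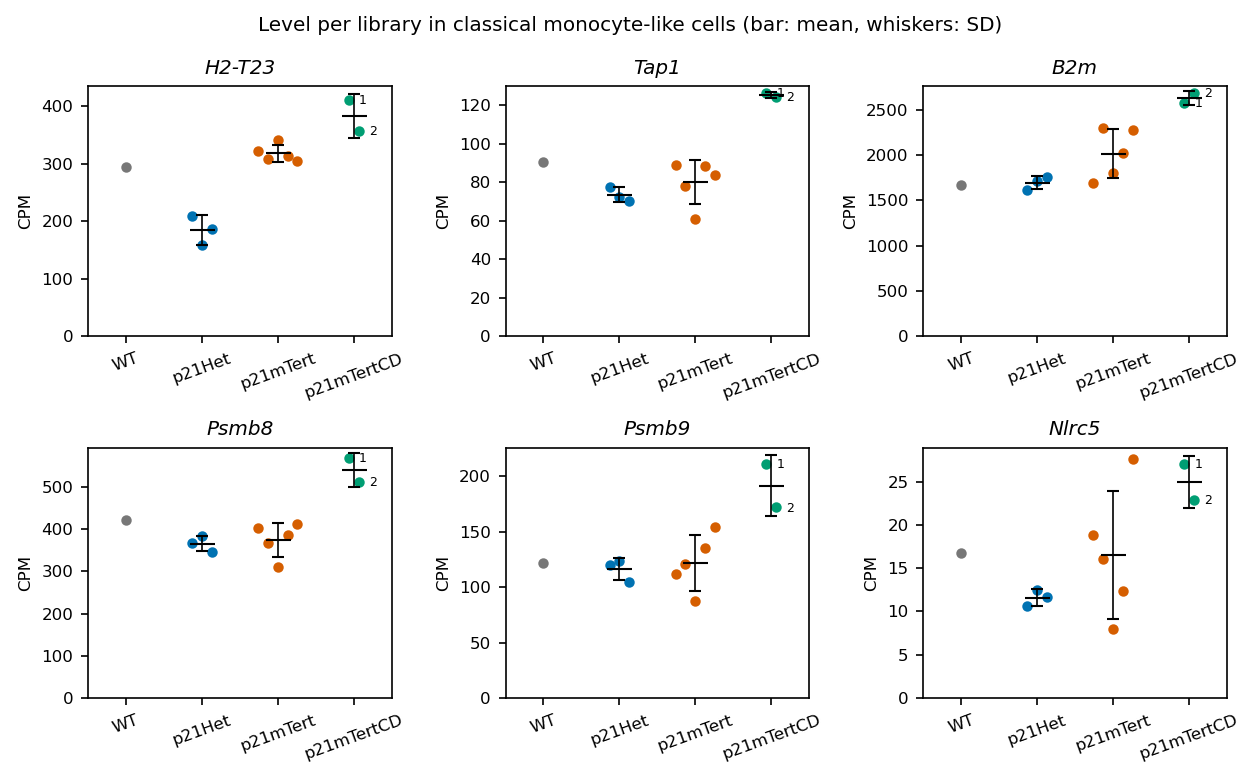
Level in CPM of the 6 genes called in classical monocyte-like cells, by genotype. Points are libraries, the bar is the mean and whiskers are the SD, with the 2 p21mTertCD libraries numbered. Both p21mTertCD libraries lie above all p21Het libraries in each panel, and H2-T23 separates p21Het from p21mTert as well.

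In gCap-like cells, the capillaries named in the series title, the 10 log2 fold changes were positive and edgeR called none, while DESeq2 called 6 (B2m, H2-K1, H2-T23, Psmb8, Psmb9 and Tap1). Of the 9751 genes tested there, edgeR called 9 and DESeq2 28. Tap1 read 270 CPM in p21mTertCD_1 and 151 CPM in p21mTertCD_2 against 119, 80.7 and 92.6 CPM in p21Het (log2 fold change 1.21 ± 0.24, edgeR adjusted p = 0.113). H2-T23 read 1033 and 716 CPM against 423, 415 and 499 CPM (1.07 ± 0.21, edgeR adjusted p = 0.113). Without p21mTertCD_1 the log2 fold changes were 0.65 for Tap1 and 0.69 for H2-T23. Nlrc5 read 78.7 CPM in p21mTertCD_1, but 26.4 CPM in p21mTertCD_2, under the WT library (27.5 CPM) and close to p21Het_3 (25.7 CPM). The spread between the 2 p21mTertCD libraries was thus wide, with p21mTertCD_1 the higher in all 6 genes plotted.

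The median log2 fold change of the 10 genes in gCap-like cells was 0.77, against -0.01 over all genes tested. It was 0.79 in the later deposit alone, 0.49 without p21mTertCD_1, with 0 genes called and 8 of 10 at an unadjusted p under 0.05 (1.62% of genes were higher at that p), and 1.01 without p21mTertCD_2, with 4 called among 41 genes in all. Summed T-cell markers in gCap-like cells were 35.3 and 185 CPM in p21mTertCD (185 in p21mTertCD_1) against 10.5 to 31.2 CPM in p21Het, with all 8 markers detected, and B-cell markers were lower (4.99 to 10.4 against 25.4 to 126 CPM). Their part in the result was not tested.

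**Figure D5:**
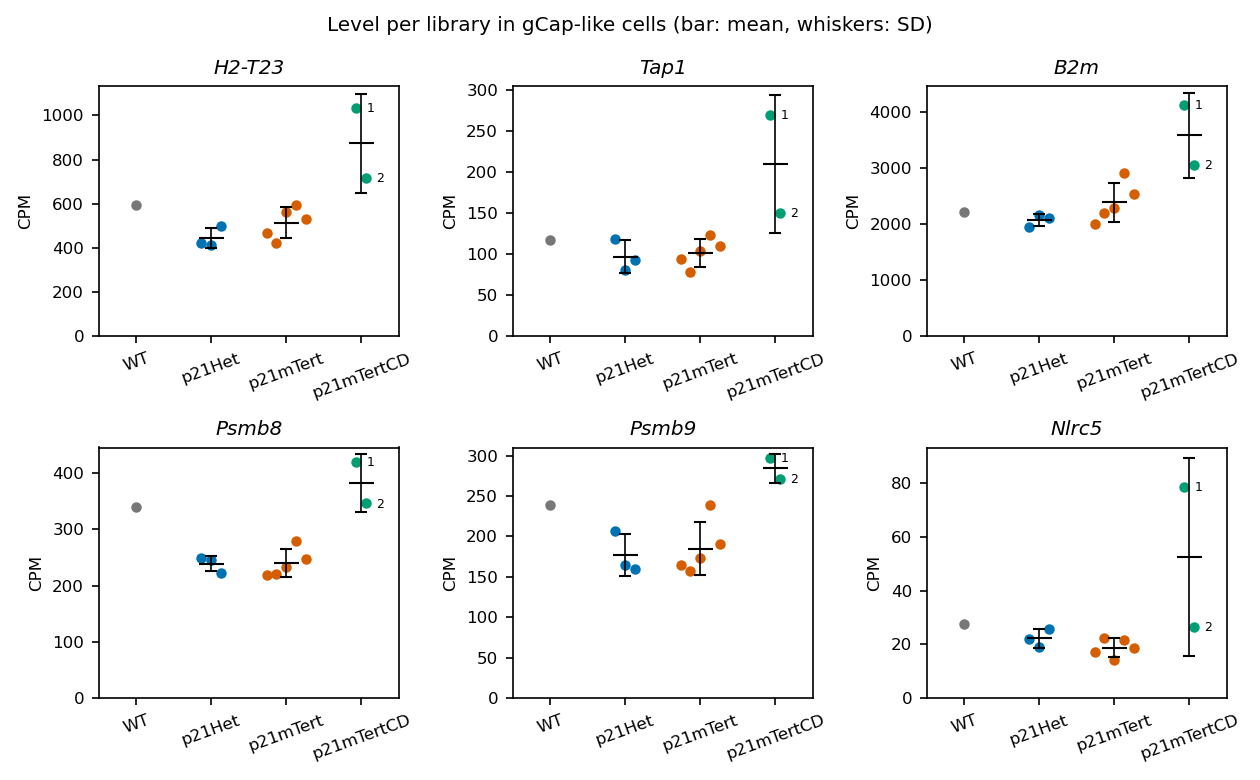
Level in CPM of the same 6 genes in gCap-like cells, by genotype. Points are libraries, the bar is the mean and whiskers are the SD, with the 2 p21mTertCD libraries numbered. The library p21mTertCD_1 is highest in every panel, and WT lies above all p21Het libraries for genes that include H2-T23, Psmb8 and Nlrc5.

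In other lineages edgeR called none of the 10 genes for p21mTertCD against p21Het. DESeq2 called 6 in T-like cells, where it called 340 genes in all against 12 by edgeR. In neutrophil-like cells the median log2 fold change was 0.65 and 7 of 10 genes were higher at an unadjusted p under 0.05 (2.81% of genes), but without p21mTertCD_1 it was 0.41 with 0 of 10. In T-like cells it was 0.40 with 8 of 10 genes (7.79% of genes), and 0.23 with 4 of 10 without that library (5.14%). In aCap-like cells it was 0.50 with 5 of 10 genes (3.40% of genes), and 0.071 with 0 of 10 without it. Without p21mTertCD_1 the direction turned in alveolar macrophage-like cells, and the median all but vanished in AT2-like and fibroblast-like cells. The medians of the first 2 were 0.066 and 0.20, with 0 of 10 genes higher at an unadjusted p under 0.05 (1.08% and 2.16% of genes), and became -0.25 and -0.016 without p21mTertCD_1. The fibroblast-like median went from 0.24 over 9 genes to -0.0025. In B-like cells the median was 0.28 with 4 of 10 genes (1.44% of genes), and 0.27 with 1 of 10 without that library. In NK-like cells it was 0.14 with 1 of 10 (3.02% of genes), and 0.075 with 0 of 10. Whether the lineages differed in their response was not tested. Over all cells, 0 of 10 genes were called by edgeR (0.12% of genes) and 4 by DESeq2, which called 183 genes in all against 21 by edgeR. At an unadjusted p under 0.05, 8 of the 10 were higher (3.73% of genes). The median log2 fold change over all cells was 0.51, and 0.34 without p21mTertCD_1. Levels over all cells also carry the makeup of a library, and T-like cells were 35.3% and 26.0% of p21mTertCD cells against 12.5% to 15.9% of p21Het cells, so more class I RNA per cell and more cells rich in it cannot be told apart there.

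Between p21mTert and p21mTertCD, 0 of 99 pairs were called by edgeR (0.0571% of all tests, 54 calls) and 8 by DESeq2, which made 301 calls in all. At an unadjusted p under 0.05, 34 pairs were lower and 0 higher in p21mTert (3.71% of all tests were lower). The median log2 fold change of a lineage ran from -0.68 (gCap-like) to -0.13 (B-like). Without p21mTertCD_1 it ran from -0.40 (gCap-like) to 0.19 (alveolar macrophage-like). This comparison shares its p21mTertCD libraries with the one above. The smallest p-values were for Tap1 in gCap-like cells (94.5, 78.1, 104, 124 and 110 CPM in p21mTert_1 to p21mTert_5, log2 fold change -1.10 ± 0.21, edgeR adjusted p = 0.0717), Tap1 in classical monocyte-like cells (-0.64 ± 0.14, 0.0951), Psmb8 in gCap-like (-0.74 ± 0.15, 0.113) and in classical monocyte-like cells (-0.54 ± 0.12, 0.119), and H2-T23 in gCap-like cells (-0.84 ± 0.18, 0.137). Without p21mTertCD_1, Tap1 and H2-T23 in gCap-like cells had log2 fold changes of -0.55 and -0.46.

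The p21mTert libraries lay below both p21mTertCD libraries in 7 of 10 genes in gCap-like cells (3.73% of genes) and in 8 of 10 in classical monocyte-like cells (5.1%). In the other 8 lineages 0 to 4 genes lay below (3.27% to 5.44% of genes), with 4 in aCap-like and 0 in T-like cells, and Psmb9 lay above in NK-like cells (11.9% of genes). With p21mTertCD_2 left out, 12 pairs were called, in gCap-like, aCap-like and T-like cells, while calls over all genes rose from 54 to 1265, of which 1089 were in T-like cells. Without p21mTertCD_1 no pair was called. Over all cells, 0 of 10 genes were called by edgeR (0.00571% of genes) and 4 by DESeq2, which called 588 genes in all against 1 by edgeR. At an unadjusted p under 0.05, 8 were lower (6.57% of genes). The median log2 fold change over all cells was -0.41, and -0.25 without p21mTertCD_1.

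Among 31 further genes of the pathway, in 287 tested pairs with a lineage, edgeR called 4 pairs higher and 0 lower in p21mTertCD than in p21Het, with 46 higher and 5 lower at an unadjusted p under 0.05. Over all genes 0.111% were called and 3.01% were higher at that p. DESeq2 called 12 of these pairs higher, among 480 calls in all. Between p21mTert and p21mTertCD edgeR called 0 pairs and DESeq2 called 6, all lower in p21mTert and among 301 calls in all. At an unadjusted p under 0.05, 5 were higher and 46 lower (3.71% of all tests were lower). Between p21mTert and p21Het edgeR and DESeq2 each called 0 (11 higher and 10 lower at an unadjusted p under 0.05, against 2.58% and 2.87% of all tests).

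The genes called by edgeR were 2 class I heavy chains and a regulator. H2-T22 was higher in p21mTertCD than in p21Het in gCap-like (log2 fold change 1.06 ± 0.18, edgeR adjusted p = 0.0428) and classical monocyte-like cells (0.73 ± 0.16, 0.0398). H2-Q7 (1.37 ± 0.27, 0.0175) and Irf1, an interferon-induced activator of class I transcription (1.23 ± 0.28, 0.0455), were higher in classical monocyte-like cells. Irf1 read 109 CPM in p21mTertCD_1 and 52.6 CPM in p21mTertCD_2 against 32.3 to 41.9 CPM in p21Het, and its log2 fold change was 0.54 without p21mTertCD_1. These 4 calls did not hold without that library, where the log2 fold change was 1.29 for H2-Q7. For H2-T22 it was 0.72 in gCap-like and 0.65 in classical monocyte-like cells. The calls were fragile in other ways too. H2-T22 in gCap-like cells was called in 8 of 20 alternatives. It was lost with any p21Het or p21mTert library left out and in the later deposit alone (edgeR adjusted p = 0.188). In classical monocyte-like cells H2-T22 was called in 13 of the 20, Irf1 in 11 and H2-Q7 in 16. Of the 7 proteasome genes and 6 genes of folding and trimming in the endoplasmic reticulum, none was called by edgeR in any comparison. For p21mTertCD against p21Het, 13 of their 69 and 8 of their 60 pairs were higher at an unadjusted p under 0.05 (3.01% of all tests). Lower at that p were 1 and 0 (0.909% to 6.45% of genes by lineage). The list of 10 class I heavy chains and class I-like molecules, which holds H2-T22 and H2-Q7, had 18 of 87 pairs higher and 4 lower in this comparison. Between p21mTert and p21Het the same list had 5 higher and 8 lower (2.58% and 2.87% of all tests).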

How the data were processed

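Droplet-based 3′ single-cell RNA was measured in 11 libraries. Per the labels' protocols and the submitters' processing notes, the authors mapped reads to mm10 and counted UMIs with Cell Ranger. The deposited values are raw UMI counts per gene and barcode, without the cell filters or scran normalization the protocols describe. No correction for free RNA was made here.

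Cells took a compartment with at least 3 of its markers detected and a lead of at least 2 over the next, and a sub-lineage with at least 2. Doublets were handled by that lead, and by an alternative without the 5% of cells with the most UMIs. UMIs were summed per library and lineage (at least 20 cells; aCap-like cells thus lack p21Het_3) and divided by all UMIs of the sum for CPM. For genotypes, the summed counts of the 10 libraries other than WT entered a group model under R 4.3.3. Genes of low count were dropped by filterByExpr, TMM set the scaling, and edgeR 4.0.16 gave quasi-likelihood p-values with Benjamini-Hochberg adjustment. The test gives no SE. The SE printed with a log2 fold change is its absolute value divided by the square root of the F value, so it restates the unadjusted p. DESeq2 1.42.0 was an alternative. Lineages were compared by exact sign-flip tests on log2(CPM + 1). The fits were tested on simulated data for gCap-like, T-like and AT2-like cells, with changes placed in p21mTert only. Classical monocyte-like cells and a change in p21mTertCD were not simulated. Neighbouring lineages differed beyond their spread where the mean paired log2 difference exceeded its SD.

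The genes and lists were chosen with earlier results of these data known. Fold changes are given for called pairs and, per comparison, for the 5 pairs of smallest p, and the 3 genes most alike are named for H2-K1, B2m, Psmb8, Tap1 and Nlrc5. Of the other pathway genes, those called are named, and 1 gene of the list is not reported here. Python 3.11.15, numpy 2.4.6, pandas 2.3.3, scipy 1.17.1 and matplotlib 3.10.9 were used.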

Additional observations from a re-analysis of the deposited data

Results flagged for a closer look

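In 3 of 110 sets of 5 p21mTert libraries (each gene in each of 10 lineages and all cells), 1 library lay apart by Dixon's criterion of 0.71 for the gap over the range. Chance gives about 1 such set in 20, or 5.5 of 110. B2m in alveolar macrophage-like cells read 3314 CPM in p21mTert_1 against 2046 to 2355 CPM in the other 4. Nlrc5 over all cells read 25.9 CPM in p21mTert_1 against 17.2 to 18.8 CPM. Tap2 in alveolar macrophage-like cells read 42.8 CPM in p21mTert_3 against 50.9 to 53.9 CPM. The library p21mTert_1 is the p21mTert library of the earlier deposit and is labelled 20 months old, and whether either bears on its values was not tested.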

How the results depend on the processing

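The 22 named fold changes kept their sign under all 20 alternatives. Counts of called pairs within lineages moved. For p21mTert against p21Het the count of 1 ranged from 0 to 1 with a library left out. For p21mTert against p21mTertCD the count of 0 became 8 with DESeq2 and 14 with no filter on low counts, and ranged from 0 to 12 with a library left out (12 without p21mTertCD_2). Calls over all genes rose with it, from 54 to 301, 966 and 1265. For p21mTertCD against p21Het the count of 6 became 19 with DESeq2 and 17 with no filter, and ranged from 1 (without p21mTertCD_1) to 16 (without p21mTertCD_2), while calls over all genes went from 105 to 480, 806, 46 and 1292. Over all cells, DESeq2 called 4 genes in each of the last 2 comparisons, and 0 to 1 were called for p21mTertCD against p21Het with a library left out (H2-T23, without p21Het_3). The cause was not tested.

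The calls for p21mTertCD against p21Het did not hold with the labelled replicate number as a block. In that fit p21mTertCD_1 stood alone in its block, so the comparison rested on p21mTertCD_2. H2-T23 in classical monocyte-like cells then had a log2 fold change of 1.03. Among libraries numbered 2 and 3, 4 of 41 correlations of same-numbered deviations were over 0.1 (median -0.0995), so the number was not taken as a pairing. No pair numbered 1 could be checked, since the labels give that number to p21mTertCD_1 only and the libraries of the earlier deposit carry none.

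In the lineage comparisons, H2-K1 in gCap-like against AT2-like cells was 0.054 with TMM library sizes. For T-like against alveolar macrophage-like cells, the earlier deposit alone gave 1.45 for Tap1, 1.63 for Psmb8 and 1.03 for Psmb9, in the same direction. Depth limits Nlrc5 most, with 374 UMIs in classical monocyte-like cells, and the number of libraries (2 p21mTertCD, 3 p21Het) limits every genotype comparison.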

Other observations

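Ifng, the interferon that induces these genes, was looked at after the class I values were seen. Over all cells it read 26.7 CPM in p21mTertCD_1, 9.80 CPM in p21mTertCD_2, 7.07 to 13.1 CPM in p21mTert, 2.80 to 7.96 CPM in p21Het and 11.5 CPM in WT. In T-like cells it read 90.1 CPM in p21mTertCD_1, above every other library, and 29.2 CPM in p21mTertCD_2, which lay within p21Het (10.9 to 30.5 CPM) and below p21mTert (29.8 to 56.6 CPM). The p21mTertCD library with the higher gCap-like class I levels was thus the one with high Ifng in T-like cells, and its part in the result was not tested. In NK-like cells the order differed, with 65.5 CPM in p21mTertCD_1, 264 CPM in p21mTertCD_2 and 343 CPM in WT.

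The WT library, which entered no test, lay above all 3 p21Het libraries for H2-T23 in classical monocyte-like (294 CPM), gCap-like (596 CPM) and T-like cells (248 CPM).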
